A study of Mus musculus with 30 samples.

Results

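Connective tissue and TGF-β genes of the heart were followed through 51 genes fixed by name, of the 20764 genes listed for mouse hearts and the 54532 listed for cultures labelled HL-1. The rule lists names and applies no measured value, but the genes were chosen with earlier results of these data known. The shares of the set called are therefore no independent test of it. Collagens and integrins were not part of the set. By role, the 51 genes are 3 markers of fibroblasts and mural cells (Pdgfra, Pdgfrb, Tcf21), 4 small leucine-rich proteoglycans (Dcn, Lum, Bgn, Fmod), 7 components of elastic fibres and fibulins (Eln, Fbn1, Fbln1, Fbln2, Fbln5, Mfap4, Mfap5), 12 matricellular and structural glycoproteins (Postn, Fn1, Sparc, Sparcl1, Thbs1, Thbs4, Tnc, Tnxb, Spon1, Spon2, Comp, Cilp) and 2 large proteoglycans (Vcan, Hspg2). A further 5 are proteases (Mmp2, Mmp14, Adam12, Adamts1, Adamts5), 4 are inhibitors of metalloproteinases (Timp1 to Timp4), 3 are lysyl oxidases (Lox, Loxl1, Loxl2), and the remaining 11 belong to TGF-β signalling itself, namely the ligands Tgfb1, Tgfb2 and Tgfb3, the receptors Tgfbr1, Tgfbr2 and Tgfbr3, the latent binding proteins Ltbp1, Ltbp2 and Ltbp4, and Smad3 and Smad7.

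Cardiac fibroblasts lay down and turn over the matrix between the muscle cells, and they are marked by the receptor PDGFRA and the transcription factor TCF21. TGF-β is secreted in a latent complex that LTBPs tether to fibrillin microfibrils, is released by proteases, integrins or thrombospondin-1, and signals through a receptor pair to SMAD3, while SMAD7 is a target gene that feeds back to inhibit the receptor. Stiffness of the tissue depends on cross-linking of collagen and elastin by lysyl oxidases and on the balance of metalloproteinases and TIMPs, and fibroblast activation is known for a rise in periostin, fibronectin and matricellular proteins.

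Hearts came from female C57BL6 mice, by the study's methods of a mixed J and N background, 1 library per mouse and 3 mice in each of 6 groups. Young mice were 2 months old and drank water, old H2O mice were 12 months old and drank water, and old NR mice were 12 months old and had nicotinamide riboside, a precursor of NAD, in the water at 3 g/L from 2 months of age. Each was taken at ZT10, late in the light phase, and at ZT22, late in the dark phase. In culture, 3 samples each were left untreated, or were given FK866, an inhibitor of the NAD salvage enzyme NAMPT, FK866 with NR, or FK866 with NR and Ex527, an inhibitor of the NAD-dependent deacetylase SIRT1. The cultures carry the label HL-1, a line derived from an atrial tumour of an adult female mouse. By the study's methods each culture sample is a well of its own, so p-values there measure the spread between wells of 1 line. Heart libraries held 3922137 to 7562215 counts and culture libraries 21337922 to 35000109. Levels are given as CPM, counts scaled to a common library size by TMM, and genes are compared with each other only per length, as TPM.

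Before the results, the libraries were set against their labels. All 10 cardiomyocyte markers were present in hearts, where they summed to between 9908 and 14451 CPM, and the 10 fibroblast markers summed to between 1733 and 2566 CPM. In the cultures the picture was different. All 10 cardiomyocyte markers (Myh6, Actn2, Tnnt2, Tnni3, Myl2, Myl3, Ryr2, Ttn, Pln, Mybpc3) had a mean under 0.5 CPM and summed to between 0.945 and 4.82 CPM, and all 6 atrial markers had a mean under 0.5 CPM too. The 7 mesothelial markers summed to between 3688 and 4554 CPM there, with Upk3b the most abundant at a mean of 1442 CPM. Of the 10 fibroblast markers, Col3a1 was the most abundant (2634 CPM), while Tcf21 had 0 counts and Lum and Dpt were under 0.5 CPM. The cultures are therefore called by their label only. Among the hearts, the old NR replicates 1 and 3 at ZT10 were close to sampling noise, with a mean chi-square of 1.065 per gene over 12629 genes (p = 1.94e-07 by a chi-square test of both libraries' counts), against 3.26 and 3.07 for the other pairs of that group and at least 1.75 for every replicate pair of the other groups. They were kept as 2 mice. For the genes fixed by name, calls between the times in old NR hearts and for NR over both times are also given with both summed as 1 library. With both summed, 0 of these genes passed for NR at ZT10 and 0 for the interaction of NR and time. For the marker and other matrix lists, a summed result is given for NR at ZT10 only. All other results that use this pair are given with 2 mice only.

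Of the 51 genes, 30 had a start in the RefSeq promoter table of build GRCm38.p6. Of the 4 genes that passed the test between the times in every mouse group (see the values given for Spon2, Mmp14, Fbn1 and Timp3), 3 have an entry. Their 250 bases before the start are shown because these genes carry the time difference. Tnxb is added as the only one of the 30 whose window holds the AP-1 and nuclear receptor letters searched. Capitals mark those motifs, an AP-1 site (TGANTCA) and a nuclear receptor half-site (AGGTCA, here on the opposite strand as TGACCT). The windows lie on chr14:54431348-54431597 (Mmp14, plus strand), chr10:86300162-86300411 (Timp3, plus strand), chr2:125506439-125506688 (Fbn1, minus strand, at a RefSeq start that is 1555 bases from the 5′ end of the GENCODE gene) and chr17:34670285-34670534 (Tnxb, plus strand).
Mmp14: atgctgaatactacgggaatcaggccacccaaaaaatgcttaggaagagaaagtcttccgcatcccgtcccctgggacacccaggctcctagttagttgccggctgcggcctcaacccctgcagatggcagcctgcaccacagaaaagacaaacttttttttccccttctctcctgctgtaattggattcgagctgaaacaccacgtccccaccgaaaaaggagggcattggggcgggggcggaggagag
Timp3: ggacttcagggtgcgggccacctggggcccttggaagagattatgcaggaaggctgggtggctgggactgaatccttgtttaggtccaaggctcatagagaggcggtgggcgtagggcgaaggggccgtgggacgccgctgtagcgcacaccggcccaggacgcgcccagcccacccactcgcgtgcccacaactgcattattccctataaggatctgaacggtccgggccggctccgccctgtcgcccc
Fbn1: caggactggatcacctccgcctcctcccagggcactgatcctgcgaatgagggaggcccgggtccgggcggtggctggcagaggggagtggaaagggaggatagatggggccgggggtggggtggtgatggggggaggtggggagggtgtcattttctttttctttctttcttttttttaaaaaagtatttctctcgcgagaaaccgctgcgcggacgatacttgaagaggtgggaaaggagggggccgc
Tnxb: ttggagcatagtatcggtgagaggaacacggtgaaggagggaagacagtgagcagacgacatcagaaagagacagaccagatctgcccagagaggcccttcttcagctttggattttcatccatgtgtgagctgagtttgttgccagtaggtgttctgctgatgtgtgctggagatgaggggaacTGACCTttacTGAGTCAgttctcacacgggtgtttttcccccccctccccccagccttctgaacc
Of the 32851 promoter windows of this length, 6.75% hold the AP-1 letters and 14.0% the half-site on either strand, against 1 and 1 of the 30 members, both in Tnxb. CACGTG (E-box) was found in 2 of the 30 (Fbln1 and Tgfb2; 6.02% of all windows) and CAGACA (SMAD) in 4 (Fbln1, Sparc, Tgfb2 and Thbs4; 17.1% of all). CATTCC (TEAD) was in 2 (12.6% of all), TATAAA in 4 (12.4% of all) and TTANGTAA (D-box) in 0 (2.06% of all). The windows of Fbln1, Tgfb2 and Thbs4 also held more than 1 of the motifs searched and are not shown. A match is a run of letters, not a bound site.

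In hearts all 51 genes were expressed above the filter and were tested. Per length, Sparcl1 was the most abundant, at a mean of 565 TPM over 18 hearts (range 508 to 614), followed by Ltbp4 at 362 TPM and Sparc at 320.3 TPM. The proteoglycans Hspg2, Dcn and Lum followed at 249.8, 235 and 225 TPM, and Lum and Timp2 could not be ordered within their spread (SD 28.1 and 16.3 TPM). At the low end stood Ltbp2 (6.38 TPM), Tnc (1.88 TPM) and Adam12 (0.775 TPM), the last with only 5 to 22 counts per heart. Together the 51 genes made up between 0.427% and 0.501% of TPM in every heart, and their median of 51.6 TPM lay above the 31.6 TPM of all genes tested. Timp3 shares 21.3% of its exon bases with Syn3 and Fbn1 20.1% with Gm9913, both on the opposite strand, and whether counting used strand is not given in the sources used here.

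**Figure D1:**
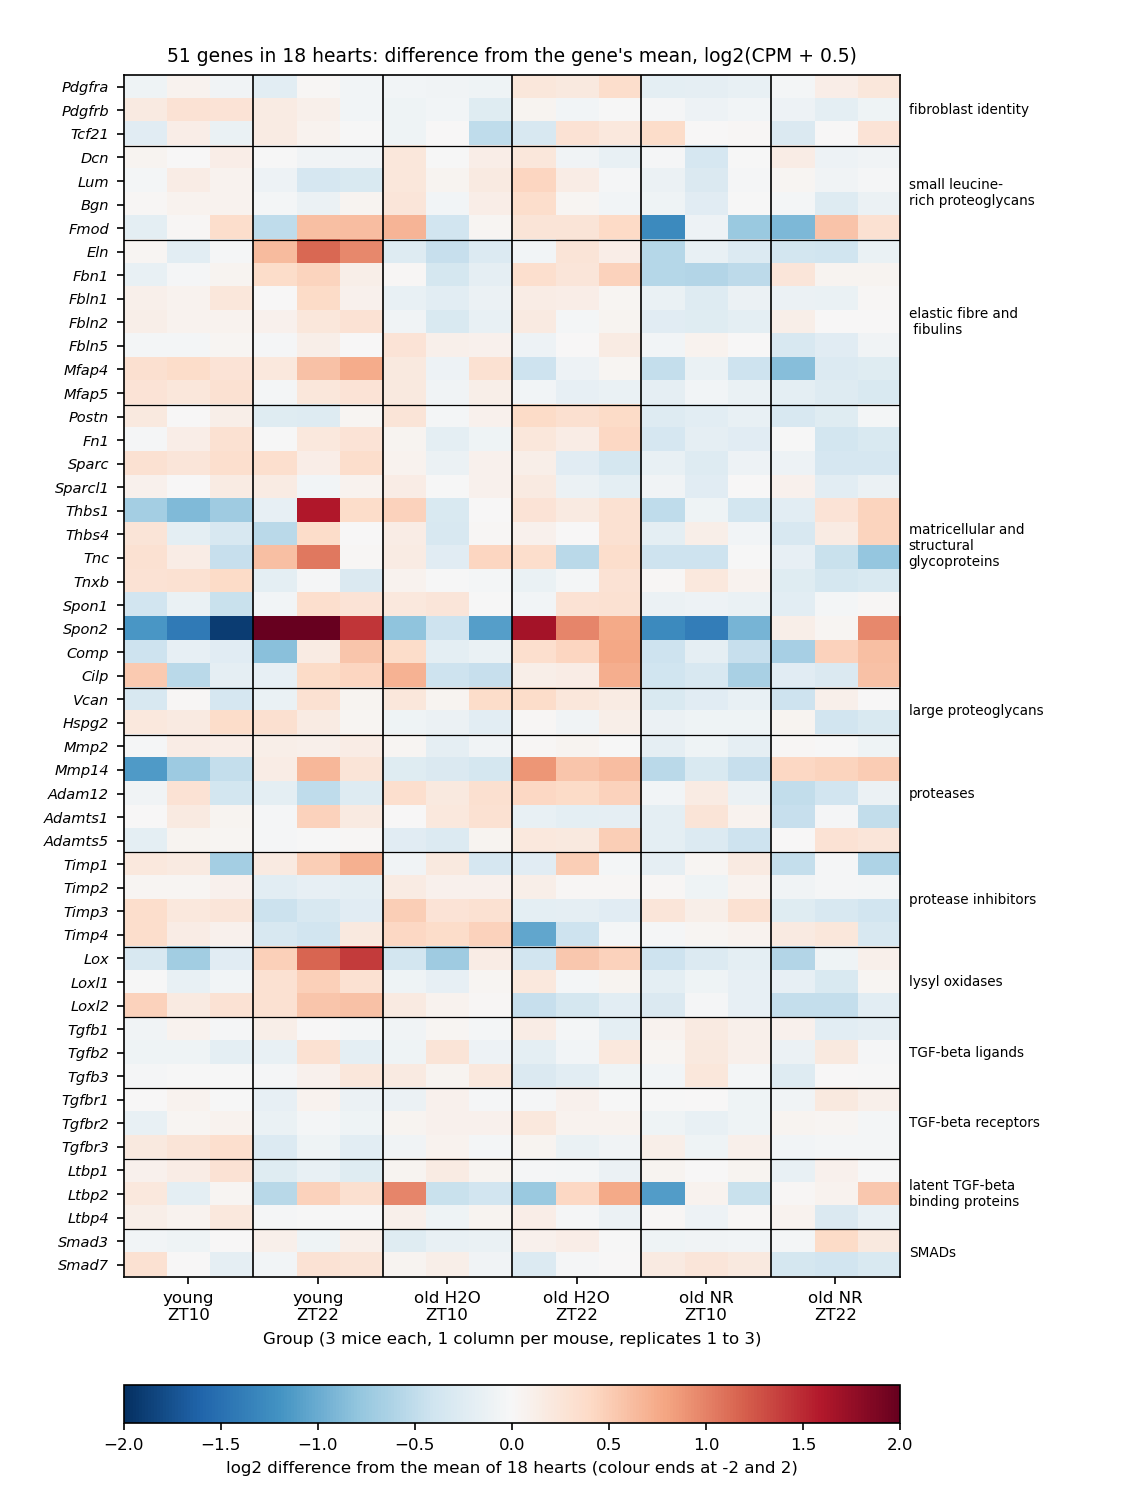
Heat map of the 51 genes (rows, by role) in 18 hearts (columns, 3 mice per group), as the log2(CPM + 0.5) difference from each gene's mean over all hearts; red is above and blue below that mean. Spon2 shows the strongest contrast between ZT10 and ZT22, from 1.56 CPM in its lowest to 35.3 CPM in its highest heart.

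The first question was which of these genes differ between day and night in young hearts. Of the 51, 14 passed the test (27.5%, against 14.4% of the 15443 genes tested; edgeR's quasi-likelihood test, Benjamini-Hochberg adjusted p under 0.05). There were 6 higher at ZT10 (6.8% of all genes) and 8 higher at ZT22 (7.57% of all genes), and the median log2 fold change of the 51 was -0.053, against 0.007 for all genes. The ZT22 side held matricellular proteins (Spon1, Spon2, Thbs1), elastic fibre genes (Eln, Fbn1), lysyl oxidases (Lox, Loxl1) and Mmp14, and the ZT10 side held Timp2, Timp3, Tgfbr3, Ltbp1, Tnxb and Lum. In bulk tissue, fewer cells of a type and less RNA per cell cannot be told apart.

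Spon2 (spondin-2), a secreted matrix protein, had 2.95, 2.38 and 1.56 CPM at ZT10 and 35.2, 35.3 and 20.3 CPM at ZT22. Every ZT22 heart was several times above every ZT10 heart, and the log2 fold change (positive where ZT10 is higher) was -3.69 ± 0.34 (SE), adjusted p = 1.32e-07. Thbs1, the thrombospondin that can release TGF-β from its latent complex, had 23.02, 19.99 and 22.7 CPM at ZT10 against 33.4, 115 and 48.4 CPM at ZT22. The groups did not overlap, but replicate 2 at ZT22 stood far above the others (log2 fold change -1.62 ± 0.31 (SE), adjusted p = 0.00106; without that heart -0.92, adjusted p = 0.00675). Lox, the lysyl oxidase that cross-links collagen and elastin, had 7.28, 5.501 and 7.78 CPM at ZT10 and 13.01, 21.2 and 25.1 CPM at ZT22. Again all ZT22 hearts were higher (-1.55 ± 0.26 (SE), adjusted p = 0.000271). Loxl1, the oxidase that acts on elastin, was higher at ZT22 as well (-0.45 ± 0.085 (SE), adjusted p = 0.000997).

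Mmp14, a membrane-bound collagenase that activates pro-MMP2, had 15.5, 20.7 and 24.9 CPM at ZT10 and 38.6, 55.3 and 41.4 CPM at ZT22. Its groups were separate, with a log2 fold change of -1.16 ± 0.14 (SE), adjusted p = 6.58e-06. Eln, which encodes elastin, had 78.3, 65.8 and 74.7 CPM at ZT10 and 119, 169.6 and 149 CPM at ZT22, with all ZT22 hearts higher (-1.01 ± 0.12 (SE), adjusted p = 3.17e-06). Fbn1, the fibrillin of the microfibrils on which elastin is laid down, had 139, 151 and 160.1 CPM at ZT10 and 198, 209 and 167 CPM at ZT22. This was a smaller difference (-0.35 ± 0.093 (SE), adjusted p = 0.0125), which lost significance without ZT10 replicate 1 or without ZT22 replicate 2 (adjusted p up to 0.0831). Spon1, a relative of Spon2, differed in the same direction (-0.52 ± 0.11 (SE), adjusted p = 0.00232).

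On the ZT10 side, Timp3, the matrix-bound inhibitor of metalloproteinases, had 310.4, 283 and 289 CPM at ZT10 and 180.3, 195 and 209 CPM at ZT22. All ZT10 hearts were above all ZT22 hearts (0.59 ± 0.076 (SE), adjusted p = 1.14e-05), and the inhibitor Timp2 showed the same with a smaller size (0.25 ± 0.059 (SE), adjusted p = 0.00546). Tnxb, the tenascin of collagen fibrils, had 290.4, 296 and 313 CPM at ZT10 and 208, 235 and 194 CPM at ZT22 (0.49 ± 0.092 (SE), adjusted p = 0.0008). Tgfbr3, the co-receptor betaglycan, had 179.6, 186 and 197 CPM at ZT10 and 130.1, 148 and 135 CPM at ZT22. It was higher in the light phase in all 3 hearts (0.45 ± 0.070 (SE), adjusted p = 0.000145), as was Ltbp1, which anchors latent TGF-β (0.39 ± 0.068 (SE), adjusted p = 0.000418). Lum, the proteoglycan lumican, passed by a narrower margin (0.31 ± 0.10 (SE), adjusted p = 0.0346) and was lost when any of 4 hearts was dropped (adjusted p up to 0.143). Fbn1 and Lum aside, the other 12 genes kept their call whichever of the 6 hearts was dropped. Cell type markers moved in the same contrast. Of the 10 fibroblast markers, Lum and Ddr2 (0.22) were higher at ZT10, of the 8 macrophage markers Mrc1 (0.35) and Cd68 (0.52), and of the 8 mural markers Myh11 (0.62), while of the 8 endothelial markers Kdr (-0.53), their most abundant, was higher at ZT22. Of the 9 myofibroblast markers tested, Meox1 (-0.92) and Cdh11 (-0.62) were higher at ZT22 and Lrrc15 (0.85) at ZT10, the mesothelial marker Wt1 was higher at ZT22 (-0.81), and of the 6 atrial markers Bmp10 passed at ZT10, where that list summed to 198 to 881 CPM against 167 to 337 CPM at ZT22. The endothelial list summed to 1734 to 1793 CPM at ZT10 and 1953 to 2089 CPM at ZT22, and the fibroblast list to 2398 to 2566 CPM and 2265 to 2354 CPM, with Gsn the most abundant. Whether these lists have a part in the result was not tested.

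**Figure D2:**
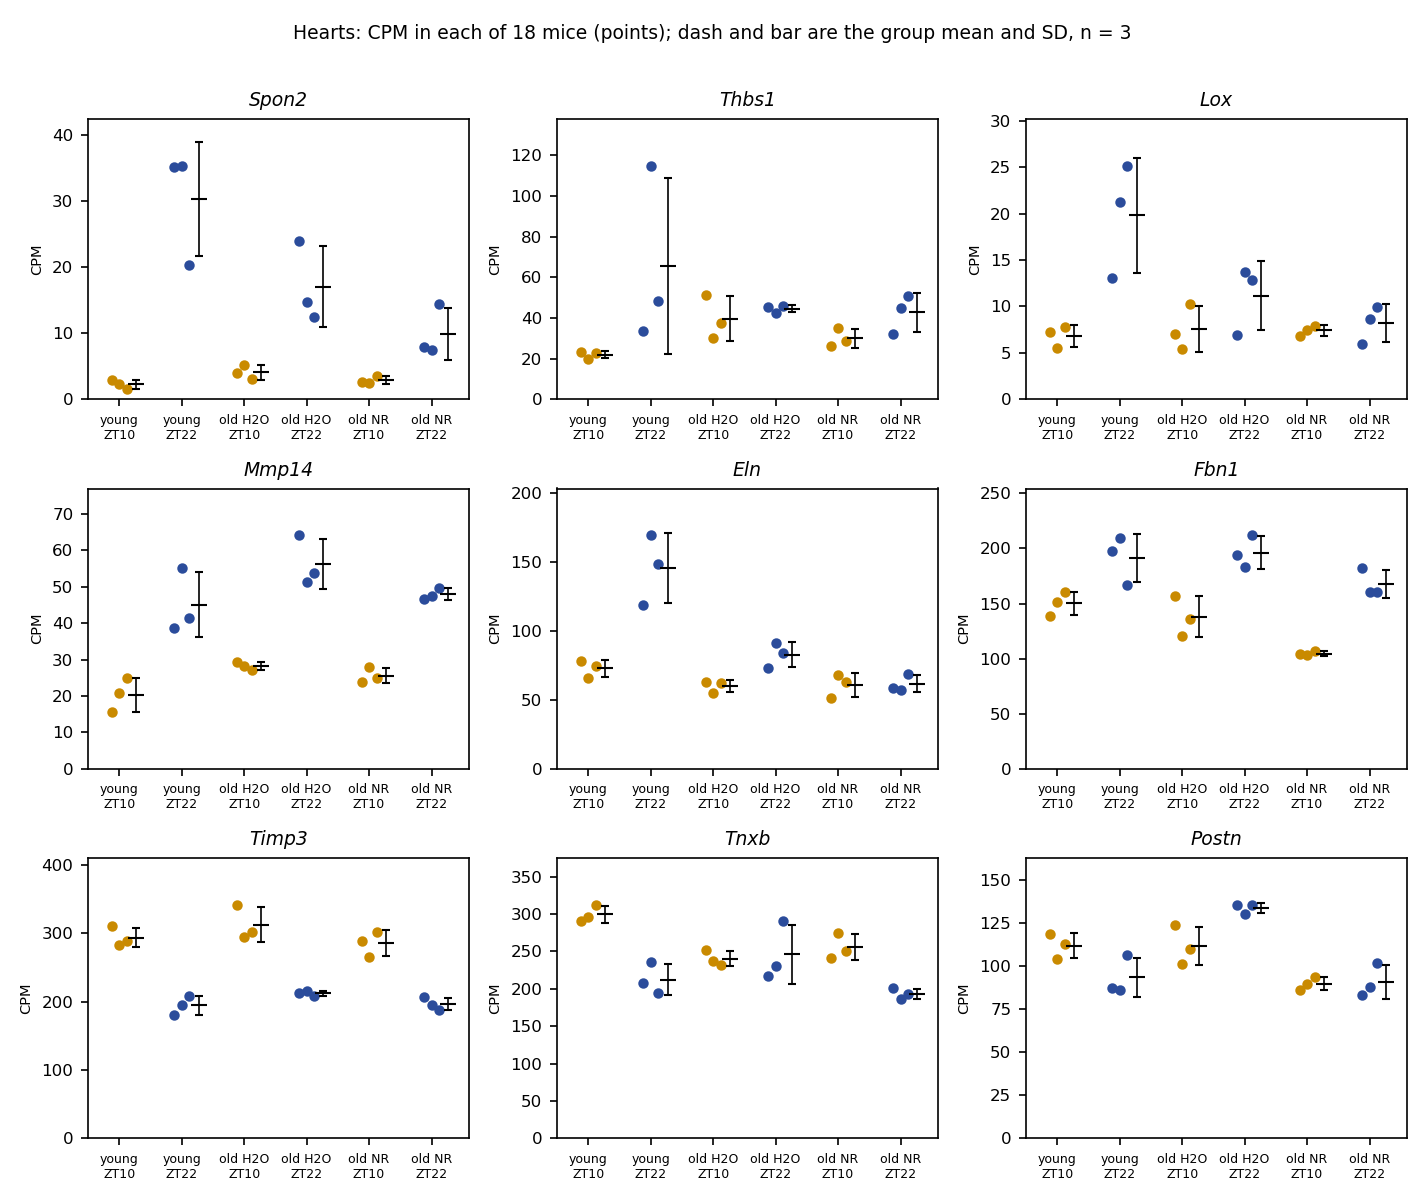
CPM of 9 genes in each of 18 hearts (points, gold for ZT10 and blue for ZT22), with the group mean and SD beside them (n = 3); every y axis starts at 0. Spon2 and Mmp14 were higher at ZT22 and Timp3 at ZT10 in all 3 mouse groups, Thbs1 reached 115 CPM in 1 young heart at ZT22, and Postn was at 130.1 to 135 CPM in old H2O hearts at ZT22, above every other heart.

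In old H2O hearts the same question gave 10 of 51 genes (19.6%, against 4.2% of all genes), 3 higher at ZT10 (1.56% of all) and 7 higher at ZT22 (2.64% of all), with a median of -0.059 over the 51 and -0.001 over all genes. Spon2 had 3.92, 5.26 and 3.09 CPM at ZT10 and 23.96, 14.7 and 12.5 CPM at ZT22 (-1.96 ± 0.32 (SE), adjusted p = 0.000852). Mmp14 had 29.3, 28.4 and 27.1 CPM and 64.2, 51.2 and 53.7 CPM (-0.98 ± 0.13 (SE), adjusted p = 8.54e-05). For both genes the ZT22 hearts lay wholly above the ZT10 hearts, as they had in young mice. Fbn1 (-0.51 ± 0.093 (SE), adjusted p = 0.00206) and Eln (-0.48 ± 0.12 (SE), adjusted p = 0.0292) were higher at ZT22, the latter in only 1 of the 6 fits without a heart. Adamts5, a protease of aggrecan and versican, had 66.1, 64.4 and 80.2 CPM at ZT10 and 89.7, 89.2 and 109 CPM at ZT22 (-0.46 ± 0.10 (SE), adjusted p = 0.0063; adjusted p = 0.058 without ZT22 replicate 3).

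Pdgfra, the receptor that marks fibroblasts, had 121, 119.7 and 118 CPM at ZT10 and 148, 145 and 161 CPM at ZT22 in these mice. The spread within each group was small and the groups were separate (-0.34 ± 0.070 (SE), adjusted p = 0.00611). Of the 10 fibroblast markers Pdgfra alone passed, and the list leaned the other way, with 6 of 10 values positive and a median of 0.024. Fn1, which encodes fibronectin, was higher at ZT22 too (-0.35 ± 0.10 (SE), adjusted p = 0.0441), but lost significance in 3 of the 6 fits without a heart (adjusted p up to 0.225). Timp4, another inhibitor of metalloproteinases, had 115, 111 and 119.7 CPM at ZT10 and 42.1, 64.9 and 84.02 CPM at ZT22. All ZT10 hearts were higher, and replicate 1 at ZT22, the shallowest library, was the lowest of all 18 hearts (0.81 ± 0.17 (SE), adjusted p = 0.00678). Timp3 was higher at ZT10 (0.56 ± 0.075 (SE), adjusted p = 9.29e-05), and so was the lysyl oxidase homologue Loxl2 (0.42 ± 0.11 (SE), adjusted p = 0.0257), which lost significance in 5 of the 6 fits (adjusted p up to 0.129). Of the 9 myofibroblast markers tested, Cdh11 (-0.79) and Fap (-0.57) were higher at ZT22, with 8 of 9 values negative, and the list summed to 279 to 292 CPM at ZT10 and 327 to 382 CPM at ZT22, with Acta2 the most abundant. Of the 6 atrial markers, Myl7 (1.14) was higher at ZT10, with 5 of 6 values positive, and the list, with Myl4 the most abundant, summed to 479 to 643 CPM at ZT10 and 168 to 642 CPM at ZT22, which overlapped. Of the 8 mural markers Cspg4 (-0.41), of the 8 macrophage markers Csf1r (-0.35) and of the 8 endothelial markers Vwf (-0.49) were higher at ZT22. In each of these 3 lists, 3 of 8 values were positive. Whether these lists have a part in the result was not tested.

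In old NR hearts 10 of 51 genes passed (19.6%, against 5.37% of all genes), again 3 higher at ZT10 (2.36% of all) and 7 higher at ZT22 (3.01% of all), with a median of -0.010 over the 51 and over all genes. Spon2 had 2.68, 2.45 and 3.55 CPM at ZT10 and 7.84, 7.42 and 14.5 CPM at ZT22 (-1.80 ± 0.35 (SE), adjusted p = 0.003). Mmp14 had 23.8, 27.9 and 25.02 CPM and 46.6, 47.6 and 49.7 CPM (-0.91 ± 0.13 (SE), adjusted p = 0.000123), and Timp3 289.5, 265 and 303 CPM and 206, 196 and 188 CPM (0.54 ± 0.075 (SE), adjusted p = 8.31e-05). These directions were those of the other groups. Fbn1 had 104, 103 and 107 CPM at ZT10 and 182, 161 and 160.1 CPM at ZT22 (-0.68 ± 0.094 (SE), adjusted p = 8.31e-05). Adamts5 was higher at ZT22 (-0.50 ± 0.10 (SE), adjusted p = 0.0025) and Tnxb at ZT10 (0.41 ± 0.092 (SE), adjusted p = 0.00987; lost without replicate 2 of either time, adjusted p up to 0.0559). Of the 8 mural markers, Notch3 (0.27), Acta2 (0.36) and Cspg4 (0.38) were higher at ZT10 in the same contrast, and the list, with Abcc9 the most abundant, summed to 1580.0 to 1812 CPM at ZT10 and 1518 to 1836 CPM at ZT22. Of 9 myofibroblast markers tested, Acta2, Meox1 (0.53) and Cnn1 (1.43) were higher at ZT10, and the list, with Acta2 the most abundant, summed to 331 to 346 CPM and 258 to 291 CPM. Of the 6 valve and tendon markers tested, 1 was higher at ZT22, with 6 of 6 values negative and a median of -0.738. Fmod and Comp of this list are among the 51 genes. Of the 4 skeletal muscle markers tested, 1 was higher at ZT22, with 3 values positive. The 6 atrial markers had 0 calls, with 6 of 6 values negative and a median of -0.775. Whether these lists have a part in the result was not tested.

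Within TGF-β signalling, the inhibitory Smad7 had 63.2, 66.7 and 64.6 CPM at ZT10 and 43.7, 42.7 and 45.1 CPM at ZT22 in old NR hearts. Its groups were far apart for their spread (0.57 ± 0.10 (SE), adjusted p = 0.0016), and the call held in all 6 fits without a heart. The same gene had a log2 fold change of -0.12 ± 0.10 (SE), adjusted p = 0.508 in young hearts and of 0.11 ± 0.10 (SE), adjusted p = 0.614 in old H2O hearts, and the difference between old NR and old H2O hearts did not pass (0.45 ± 0.15 (SE), adjusted p = 0.261). Smad3, which carries the signal to the nucleus, had 59.1, 59.8 and 60.7 CPM at ZT10 and 60.8, 82.3 and 72.2 CPM at ZT22. It passed narrowly (-0.28 ± 0.082 (SE), adjusted p = 0.049) and lost significance in 5 of the 6 fits, with -0.17 and adjusted p = 0.346 without ZT22 replicate 2. It was also lost with DESeq2, with another filter on low counts, with no filter and in a fit of the 2 groups alone. Pdgfra (-0.28 ± 0.070 (SE), adjusted p = 0.0181) and the fibulin Fbln2 (-0.27 ± 0.071 (SE), adjusted p = 0.0284) were higher at ZT22, and lost significance in 5 and 6 of the 6 fits. With ZT10 replicates 1 and 3 summed as 1 library, 7 of the 10 genes passed, without Pdgfra, Smad3 and Fbln2.

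These 3 contrasts use different mice. Young and old H2O hearts shared 5 genes (35.7% of the young and 50% of the old calls), and old H2O and old NR hearts shared 6 (60.0% of each). Over all genes tested, young and old H2O hearts shared 278 (12.5% and 42.8% of their calls), and old H2O and old NR hearts 240 (37.0% and 29.0%). Spon2, Mmp14, Fbn1 and Timp3 passed in all 3 groups, in the same direction each time. At the other end, 19 of the 51 genes passed in no heart comparison at all, among them Dcn, Bgn, Tcf21, Mmp2, Timp1, Tgfb1, Tgfb2, Tgfbr1, Ltbp2 and Ltbp4.

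Whether the day-night difference itself changed with age was tested as an interaction of age and time, which reuses the young and old H2O hearts. Of the 51 genes, 7 passed (13.7%, against 6.89% of all genes), 3 with a positive value (3.13% of all) and 4 with a negative one (3.76% of all). Thbs1 had 51.4, 30.1 and 37.6 CPM at ZT10 and 45.3, 42.5 and 45.99 CPM at ZT22 in old H2O hearts, which overlapped, where the young hearts had not (interaction 1.44 ± 0.43 (SE), adjusted p = 0.0469). It did not pass in 9 of the 12 fits without a heart, nor with DESeq2, nor in a fit of the groups compared alone (adjusted p = 0.0691), and without young ZT22 replicate 2 it was 0.74 (adjusted p = 0.122). Tnxb was higher at ZT10 in young but not in old H2O hearts, where it had 252, 238 and 232 CPM at ZT10 and 217, 231 and 291 CPM at ZT22 (interaction -0.54 ± 0.13 (SE), adjusted p = 0.0146). Tgfbr3 showed the same pattern (-0.40 ± 0.10 (SE), adjusted p = 0.0158), with a difference between the times of 0.041 ± 0.070 in old H2O hearts.

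Postn, which encodes periostin, had 119, 104 and 113 CPM at ZT10 and 87.5, 86.3 and 106 CPM at ZT22 in young hearts, and 124, 101 and 110.0 CPM and 135, 130.1 and 135 CPM in old H2O hearts. The sign of the difference turned with age (interaction -0.52 ± 0.12 (SE), adjusted p = 0.0119), although neither age group passed alone. Loxl2 (0.60 ± 0.15 (SE), adjusted p = 0.0146), Pdgfra (-0.39 ± 0.10 (SE), adjusted p = 0.0213) and the ligand Tgfb3 (0.45 ± 0.13 (SE), adjusted p = 0.0439) also passed. Loxl2 lost its call without old H2O ZT10 replicate 1 (adjusted p = 0.0501), Pdgfra without old H2O ZT22 replicate 3 or young ZT10 replicate 2 (adjusted p up to 0.0699) and Tgfb3 in 9 of the 12 fits and with DESeq2 (adjusted p = 0.0899). Postn, Tnxb and Tgfbr3 kept theirs in all 12. Marker lists moved in the same contrast. Of the 8 macrophage markers, Cd68 (-0.71), Mrc1 (-0.63) and Csf1r (-0.39) were negative, of the 8 mural markers Myh11 (-1.04) and Cspg4 (-0.51), and of the 10 fibroblast markers Pdgfra and Ddr2 (-0.26). Of the 9 myofibroblast markers tested, Lrrc15 (-1.19) and Fap (-0.88) were negative and Meox1 (0.69) positive. Macrophage markers summed to 354 to 404 CPM at ZT10 and 327 to 368 CPM at ZT22 in young hearts, and to 396 to 454 CPM and 451 to 499.7 CPM in old H2O hearts, with Mrc1 the most abundant. Mural markers, with Abcc9 the most abundant, summed to 1784 to 2030.0 CPM and 1695 to 1888 CPM in young and to 1718 to 1892 CPM and 1706 to 1896 CPM in old H2O hearts. The part of these markers in the result was not tested. For Spon2 the interaction was 1.73 ± 0.53 (SE), adjusted p = 0.0508, which did not pass. With 1 heart left out the count ran from 4 (without old H2O ZT10 replicate 1) to 12 (without young ZT22 replicate 1).

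**Figure D3:**
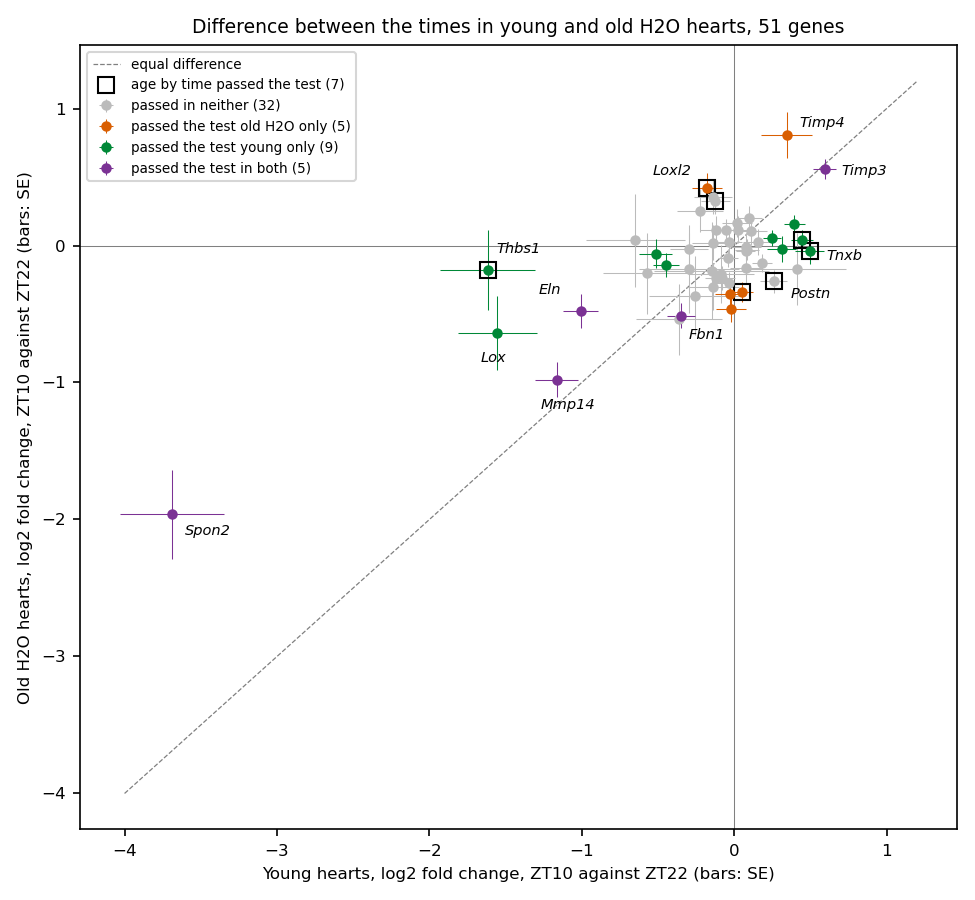
Log2 fold change between ZT10 and ZT22 for the 51 genes in young hearts (x axis) and in old H2O hearts (y axis), with SE bars; colours give where a gene passed the test, black squares the 7 genes whose difference changed with age, and the dashed line equal differences. Spon2 lies at -3.69 and -1.96, Mmp14 near the line at -1.16 and -0.98, and Thbs1 off it at -1.62 and -0.18.

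Old H2O hearts were next compared with young hearts at each time. At ZT10, 7 of 51 genes passed (13.7%, against 5.87% of all genes), 1 higher (2.95% of all) and 6 lower with age (2.92% of all), with a median of -0.004 against -0.001 over all genes. Pdgfrb, the receptor of mural cells, had 169, 183 and 181 CPM in young and 139.8, 143 and 125 CPM in old hearts. The old hearts were all lower (-0.38 ± 0.067 (SE), adjusted p = 0.00142). The 8 mural markers moved beside it, with 5 lower with age and 0 higher, a summed level of 1784 to 2030 CPM in young and 1718 to 1892 CPM in old hearts, and Abcc9 as the most abundant gene. The 5 that were lower ran from -0.62 (Cspg4) to -0.30 (Kcnj8), while Abcc9, which weighs most in the sum, was at 0.064 and was not called. In other lists, the myofibroblast markers Lrrc15 (-0.45) and Acta2 (-0.35), the fibroblast marker Col1a1 (-0.36) and the endothelial marker Tie1 (-0.25) were lower with age, and the macrophage marker Adgre1 was higher (0.56). Values were negative for 6 of 9 myofibroblast, 7 of 10 fibroblast, 5 of 8 endothelial and 2 of 8 macrophage markers. Of the 6 red blood cell markers, 1 was higher, with 6 of 6 values positive and a median of 0.467. The myofibroblast list summed to 333 to 364 CPM in young and 279 to 292 CPM in old hearts. The part of these lists in the result was not tested. The basement membrane proteoglycan Hspg2 had 968, 950.5 and 1075 CPM in young and 791, 769 and 719 CPM in old hearts (-0.39 ± 0.11 (SE), adjusted p = 0.0311).

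Tnxb (-0.32 ± 0.092 (SE), adjusted p = 0.0436), Fbln1 (-0.30 ± 0.082 (SE), adjusted p = 0.0333), Fbln2 (-0.26 ± 0.072 (SE), adjusted p = 0.0334) and Tgfbr3 (-0.27 ± 0.070 (SE), adjusted p = 0.0216) were lower with age at ZT10. Spon1 was the only one higher, with 52.7, 62.5 and 50.02 CPM in young and 79.3, 81.3 and 67.9 CPM in old hearts (0.46 ± 0.11 (SE), adjusted p = 0.0131). These calls were fragile: each fit without 1 of the 6 hearts left 2 or 3 genes, and Pdgfrb alone kept its call in all 6. With no filter on low counts, Tnxb, Fbln1 and Fbln2 lost their calls as well. A fit of these 2 groups alone called 12.

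At ZT22, 16 of 51 genes passed (31.4%, against 14.1% of all genes), 6 higher with age (7.96% of all) and 10 lower (6.17% of all), with a median of 0.008 against -0.005. None of the 51 passed at both times; of all genes tested, 309 did, which is 34.1% of the calls at ZT10 and 14.2% of those at ZT22. All 3 lysyl oxidases and 3 of the 7 elastic fibre genes were lower in old hearts, of which Loxl2, Eln and Mfap4 kept their call in every fit without a heart. Loxl2 had 47.3, 55.9 and 57.3 CPM in young and 27.7, 29.6 and 32.7 CPM in old hearts. The groups were far apart for their spread (-0.82 ± 0.10 (SE), adjusted p = 2.09e-05). Eln had 119, 169.6 and 149 CPM in young and 73.5, 91.3 and 83.8 CPM in old hearts (-0.81 ± 0.11 (SE), adjusted p = 6.77e-05), and Mfap4, a protein of elastic fibres, 26.7, 35.02 and 39.2 CPM and 17.3, 21.4 and 23.6 CPM (-0.67 ± 0.15 (SE), adjusted p = 0.00525).

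Lox (-0.78 ± 0.23 (SE), adjusted p = 0.0281) and Spon2 (-0.89 ± 0.24 (SE), adjusted p = 0.0158) were lower with age as well, but the young and old hearts overlapped for both, and they lost significance in 3 and 4 of the 6 fits without a heart. Sparc, the collagen chaperone osteonectin, had 358, 311 and 359 CPM in young and 307, 241 and 222 CPM in old hearts (-0.42 ± 0.10 (SE), adjusted p = 0.00732; adjusted p = 0.0505 without old H2O ZT22 replicate 3). The other 4 genes that were lower (Adamts1, Mfap5, Loxl1 and Tgfb3) had log2 fold changes between -0.40 and -0.29. They lost significance in 5, 4, 3 and 4 of the 6 fits without a heart, Mfap5 and Tgfb3 also with DESeq2 and Tgfb3 with no filter, and Adamts1 was at -0.26 (adjusted p = 0.237) without young ZT22 replicate 2.

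Higher in old hearts at ZT22 were Postn (87.5, 86.3 and 106 CPM in young and 135, 130.1 and 135 CPM in old; 0.52 ± 0.086 (SE), adjusted p = 0.000406) and Lum (120.2, 102 and 105 CPM and 174, 143 and 126 CPM; 0.43 ± 0.10 (SE), adjusted p = 0.00485). Pdgfra had 109, 128 and 121 CPM in young and 148, 145 and 161 CPM in old hearts (0.34 ± 0.070 (SE), adjusted p = 0.00258). For all 3 genes the old hearts lay above the young ones, and the call held in all 6 fits. Adamts5 (0.32 ± 0.10 (SE), adjusted p = 0.0277), Timp2 (0.25 ± 0.058 (SE), adjusted p = 0.00678) and Tgfbr2, the type II receptor that binds the ligand (0.20 ± 0.063 (SE), adjusted p = 0.0398), were also higher. Adamts5 lost significance in 4 of the 6 fits without a heart, with 0.21 (adjusted p = 0.189) without old H2O ZT22 replicate 3, and Tgfbr2 in 5 of 6, with DESeq2 and with no filter. Beside these genes, 6 of the 8 macrophage markers were higher with age and 0 lower, summing to 327 to 368 CPM in young and 451 to 499.7 CPM in old hearts, with Mrc1 the most abundant. Of the 10 fibroblast markers, Lum, Pdgfra and Ddr2 were higher and Col1a1 lower, and their sum was 2265 to 2354 CPM in young and 2046 to 2536 CPM in old hearts. Of the 8 endothelial markers, 3 were lower and 1 higher, with a sum of 1953 to 2089 CPM in young and 1797 to 1928 CPM in old hearts. Of the 9 myofibroblast markers tested, Cdh11 (0.46) and Lrrc15 (0.74) were higher and Meox1 (-0.38) and Acta2 (-0.31) lower, with a sum of 336 to 362 CPM in young and 327 to 382 CPM in old hearts, and of the 8 mural markers Myh11 (0.53) was higher and Acta2 lower. The mesothelial marker Wt1 was lower (-0.73). Of the 6 red blood cell markers, 1 was higher (median 0.123), and of the 4 skeletal muscle markers tested, 1 was lower, with 4 of 4 values negative. The part of these lists in the result was not tested. The total of 16 calls fell to 9 without young ZT22 replicate 2 and to 10 without young replicate 3, old H2O replicate 2 or old H2O replicate 3, and was 9 in a fit of these 2 groups alone, without Lox, Sparc, Mfap5, Loxl1, Tgfb3, Tgfbr2 and Timp2.

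What NR changed in old hearts was tested at each time and as the mean over both, using the same old H2O hearts as the age comparisons. At ZT10, 0 of 51 genes passed with edgeR (0.285% of all genes did), 13 had an unadjusted p under 0.05, and DESeq2 called 1. A fit of the 2 groups at ZT10 alone called 5, and 234 of the 15354 genes it tested. At ZT22, 2 passed (3.92%, against 0.35% of all genes; both lower, as were 0.259% of all). Over both times 3 passed (5.88%, against 0.337% of all genes), all lower with NR (0.291% of all). The median log2 fold change of the 51 was -0.14 at ZT10, -0.13 at ZT22 and -0.14 over both times, against -0.003, 0.008 and 0.003 for all genes, and 41 of the 51 had a negative value over both times.

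Postn had 124, 101 and 110.0 CPM without and 86.3, 89.2 and 93.5 CPM with NR at ZT10. At ZT22 it had 135, 130.1 and 135 CPM without and 82.9, 87.7 and 101 CPM with NR. At ZT22 all NR hearts were below all old H2O hearts, and over both times 5 of the 6 NR hearts were below every old H2O heart. The log2 fold change was -0.43 ± 0.061 (SE), adjusted p = 0.00177 over both times, kept in all 12 fits without a heart, and -0.55 ± 0.085 (SE), adjusted p = 0.00559 at ZT22, lost without NR replicate 2 (adjusted p = 0.059). Fn1 had 163, 155 and 185 CPM without and 138, 108 and 112 CPM with NR at ZT22. The NR hearts were all lower (-0.51 ± 0.10 (SE), adjusted p = 0.0227 at ZT22 and -0.34 ± 0.070 (SE), adjusted p = 0.0379 over both times). Fbn1 was lower over both times (-0.32 ± 0.066 (SE), adjusted p = 0.0379), from 138 ± 18.5 to 105 ± 1.98 CPM (mean and SD, n = 3) at ZT10 and from 196 ± 14.8 to 168 ± 12.4 CPM at ZT22. Fn1 and Fbn1 each lost significance in 8 of the 12 fits without a heart, and also with the NR ZT10 replicates 1 and 3 summed as 1 library, where Postn alone passed. At ZT22 both calls were lost without NR replicate 2, and Fn1 also without NR replicate 3 or old H2O replicate 3. A fit of the 2 groups alone called neither (adjusted p = 0.0582 for Postn and 0.177 for Fn1 at ZT22).

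Other matrix genes had values of similar size that did not pass: Adam12 at -0.61 ± 0.20 (SE), adjusted p = 0.268, Spon2 at -0.61 ± 0.25 (SE), adjusted p = 0.372, Vcan at -0.37 ± 0.086 (SE), adjusted p = 0.0619 and Mfap4 at -0.37 ± 0.11 (SE), adjusted p = 0.176 over both times. The TGF-β ligands and the type I receptor were closer to 0, with Tgfb1 at 0.034 ± 0.060, Tgfb2 at 0.048 ± 0.090, Tgfb3 at 0.0059 ± 0.065, and Tgfbr1 at 0.028 ± 0.053, while Tgfbr2 was at -0.14 ± 0.045 (SE), adjusted p = 0.194. Among group means, that of an old NR group was the lowest of the 6 for 32 of the 51 genes (62.7%, against 27.3% of all genes tested) and the highest for 6 (11.8%, against 27.7%). Marker lists moved beside these values. Of the 10 fibroblast markers, Col3a1, Col1a1, Col1a2 and Dpt were lower with NR over both times, and their sum was 2141 to 2451 CPM without and 1733 to 1995 CPM with NR at ZT10, with Gsn the most abundant gene. Of the 8 macrophage markers, 3 were lower, and their sum at ZT22 was 451 to 499.7 CPM without and 329 to 353 CPM with NR. Of the 9 myofibroblast markers, Meox1 (-0.82) and Acta2 (-0.42) were lower with NR at ZT22, with 9 of 9 values negative, and their sum was 327 to 382 CPM without and 258 to 291 CPM with NR at ZT22 but 279 to 292 CPM and 331 to 346 CPM at ZT10. Of the 8 mural markers, Myh11 (-0.67) and Acta2 were lower at ZT22, with 8 of 8 values negative. Of the 8 endothelial markers, Vwf (-0.71) was lower at ZT22, with 6 of 8 values negative. Of the 6 valve and tendon markers tested, 1 was lower with NR at ZT10 (median -0.536, 4 of 6 negative). Over both times 1 was lower as well (median -0.226, 5 of 6 negative). Of the 10 cardiomyocyte markers 0 passed over both times, with 10 of 10 values negative and a median of -0.13. Of the 6 atrial markers, 3 were lower with NR at ZT10, with Myl4 the most abundant and a sum of 479 to 643 CPM without and 158 to 165 CPM with NR. All marker calls at ZT10 were lost with the NR ZT10 replicates 1 and 3 summed as 1 library (0 of 15584 genes passed). Most marker calls at ZT22 were lost without NR ZT22 replicate 2, where 2 of 15384 genes passed. The same held in a fit of the 2 groups at ZT22 alone, where 2 of 15695 passed. The part of these lists in the result was not tested. An interaction of NR and time passed for 0 of the 51 genes (0.343% of all genes), with 5 at an unadjusted p under 0.05 and 0 by DESeq2.

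**Figure D4:**
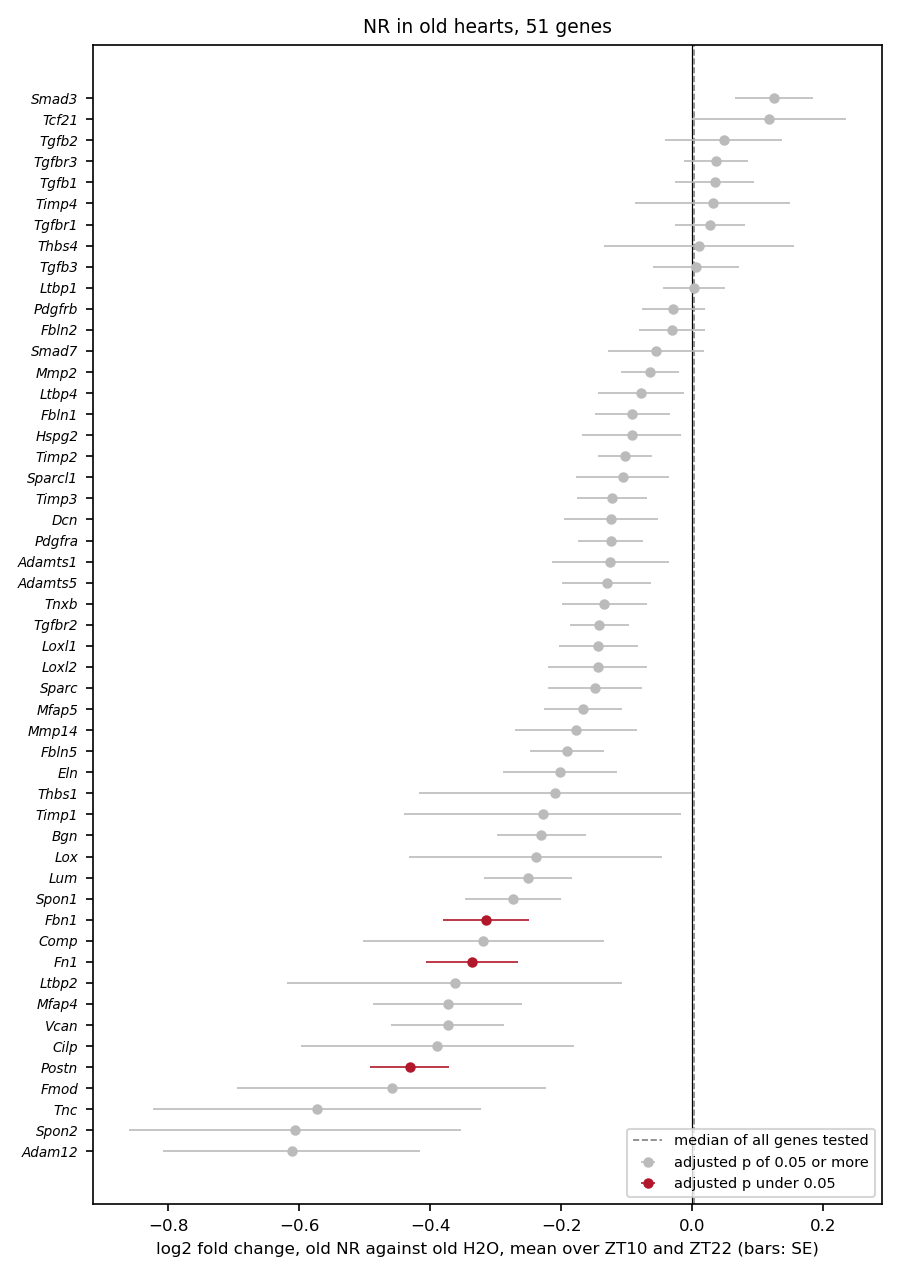
Log2 fold change of old NR against old H2O hearts, averaged over ZT10 and ZT22, for the 51 genes with SE bars; red marks the 3 genes with an adjusted p under 0.05 and the dashed line the median of all genes tested. Postn (-0.43), Fn1 (-0.34) and Fbn1 (-0.32) passed, 41 of the 51 points lie below 0, and the TGF-β ligands lie near it.

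Beside the calls already given for Tgfb3, Tgfbr2, Tgfbr3, Ltbp1, Smad3 and Smad7, the levels of the signalling genes were as follows. Over the 18 hearts, Tgfb1 ran from 50.3 to 66.0 CPM (median 57.6), Tgfb2 from 36.9 to 52.6 (40.3) and Tgfb3 from 33.5 to 48.1 (40.5). The highest group mean was 1.16, 1.19 and 1.27 times the lowest for these ligands, against 13.2 times for Spon2 and 2.99 times for Thbs1. Tgfbr1 ran from 63.0 to 80.9 CPM (69.9), Tgfbr2 from 128 to 165 (147), Tgfbr3 from 130.1 to 197 (152), Smad3 from 53.1 to 82.3 (60.8) and Smad7 from 42.7 to 69.2 (56.2). The highest group mean of these 5 genes was between 1.11 (Tgfbr1) and 1.48 times (Smad7) the lowest. Among the latent binding proteins Ltbp4 had 449.8 to 636 CPM (553), while Ltbp2 had 5.00 to 22.9 CPM (11.9), with its lowest heart in old NR and its highest in old H2O mice, both at ZT10. Of the fibroblast markers that passed nowhere, Dcn ran from 254 to 377 CPM (319) and Tcf21 from 12.3 to 23.0 (17.9). Mmp2 had 111 to 141 CPM (127) and Timp1, at 2.00 to 6.10 CPM (3.53), had 9 to 33 counts in a heart.

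Genes of the same pathways outside the 51 were taken from 2 lists, 42 tested genes of TGF-β and BMP signalling and 67 of the matrix. Like the 51, these lists were chosen with earlier results of these data known. In young hearts 19 of the 42 passed between the times (45.2%, against 14.4% of all genes), 5 higher at ZT10 and 14 at ZT22 (median -0.20), led at ZT22 by the stress cytokine Gdf15 (-1.47), the activin antagonist Fst (-1.43) and the inhibin subunit Inhbb (-1.25), and at ZT10 by Bmp4 (0.62), Acvr1b (0.39) and Tgfbi (0.36). In old H2O hearts 2 were higher at ZT10 (Ccn2 at 0.79 and Id1 at 0.33) and 3 at ZT22 (Inhbb at -0.86, Id2 at -0.48 and Smad6 at -0.43), and in old NR hearts 3 at ZT10 (among them Lrrc32 at 0.42 and Skil at 0.40) and 1 at ZT22 (Acvr2a at -0.30). Age changed the time difference of 8, with Gdf15 (2.44), Ccn2 (1.38) and Smurf2 (0.54) the largest positive and Smad6 (-0.43) and Smurf1 (-0.30) negative. Old hearts had 3 higher genes at ZT10 (Gdf15 at 1.70, Ccn2 at 0.76 and Smurf2 at 0.25), and at ZT22 2 higher (Id2 at 0.48 and Smad6 at 0.47) and 9 lower, led by the pseudoreceptor Bambi (-0.41), Ski (-0.38) and the protease Furin (-0.35). NR lowered 1 over both times (Fstl1, -0.23), and Smad6 had a higher value in the NR by time interaction (0.59). These counts are 11.9% of the list for the times in old H2O hearts (4.2% of all genes), 9.52% in old NR hearts (5.37%), 19.0% for age by time (6.89%), 26.2% for age at ZT22 (14.1%) and 7.14% for age at ZT10, near the 5.87% of all genes. Each count of 1 for NR is 2.38% (0.337% over both times and 0.343% for the interaction).

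Of the 67 other matrix genes, 24 passed between the times in young hearts (35.8%, against 14.4% of all genes), 11 higher at ZT10, led by Ccn5 (0.87), Podn (0.82) and Adamtsl4 (0.67), and 13 higher at ZT22, led by the proteases Adamts4 (-3.89), Adam19 (-1.84) and Mmp3 (-1.78). Adamts4 and Adam19 also led at ZT22 in old H2O hearts (-2.10 and -1.11; 4 higher at ZT10 and 5 at ZT22, 13.4% against 4.2%) and were the 2 genes that passed in old NR hearts (-2.92 and -1.73), a share of 2.99% that is below the 5.37% of all genes. With age at ZT22, 19 were higher, led by Mmp9 (2.07), Fbln7 (1.85) and Efemp1 (1.51), and 7 lower, led by Adamtsl2 (-1.39), P4ha1 (-0.62) and Adamts9 (-0.54). With age at ZT10, 6 were higher, led by Mmp3 and Mmp9 (both 1.75) and Fbln7 (1.57), and 4 lower, led by Emilin2 (-0.58), Adamtsl4 (-0.49) and Adamts10 (-0.40). Age changed the time difference of 12, with 6 positive, led by Adamtsl2 (1.56), P4ha1 (1.11) and Adam19 (0.73), and 6 negative, led by Mmp11 (-0.93), Gpc6 (-0.58) and Adamtsl4 (-0.54). At ZT10 NR lowered Cilp2 (-4.18), Adam19 (-0.56) and Dpt (-0.32), and at ZT22 Emilin1 (-0.53) and Ecm1 (-0.38). The ZT10 calls were lost with the NR ZT10 replicates 1 and 3 summed as 1 library, where 0 of 15584 genes passed. They were also lost without either of these 2 hearts or without old H2O ZT10 replicate 3 (0 genes each). NR over both times lowered 7 and raised 0, led by Cilp2 (-2.37), Adamts2 (-0.40) and Emilin1 (-0.35), with a list median of -0.17 and 58 of 67 values negative. The shares were 38.8% for age at ZT22 (14.1% of all genes), 14.9% at ZT10 (5.87%) and 17.9% for age by time (6.89%), and for NR 4.48% at ZT10 (0.285%), 2.99% at ZT22 (0.35%) and 10.4% over both times (0.337%). Those for NR at ZT10 were both 0 with the NR ZT10 pair summed. For NR at ZT22, 2 of 15384 genes passed without NR replicate 2, and 2 of 15695 in a fit of the 2 groups alone.

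In the cultures the set was only partly present. Of the 51 genes, 37 passed the filter on low counts, and 14 did not, including Tcf21 and Mfap5 (each 0 TPM), Lum, Eln, Postn, Fbln1, Mfap4, Pdgfrb and Timp4, all with a mean under 0.2 TPM. Sparcl1, the most abundant of the set in hearts, was also among the 14, with 503 counts in 1 culture (FK866 with NR, replicate 1) and almost none in the others. That culture also held 12 counts of Thbs4, 8 of Timp4, 6 each of Lum and Fbln1 and 2 of Mfap4. Each of these genes had at most 1 count in any other culture. Per length, Sparc (1362 TPM) and Fn1 (1183 TPM) were the most abundant, followed by Timp2 (555 TPM), and Tgfb3 and Tgfb2 stood at 159.8 and 121 TPM. A gene was called here at an adjusted p under 0.01 and a change over 1.5-fold.

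FK866 changed 8 of the 37 genes (21.6%, against 4.59% of the 14760 genes tested), 2 higher (2.09% of all) and 6 lower (2.5% of all), with a median of -0.16 against 0.016. NR added to FK866 also changed 8 (21.6%, against 4.81% of all), 7 higher (2.79% of all) and 1 lower (2.02% of all), with a median of 0.17 against 0.006. Both comparisons contain the same FK866 cultures, so opposite signs between them are not independent. Of the 8 fibroblast markers tested, 3 were lower with FK866 and 3 higher with NR, and the list summed to 4185 to 4591 CPM untreated, 2866 to 3030.4 CPM with FK866 and 4179.5 to 4228 CPM with FK866 and NR. Its most abundant gene was Col3a1, and Tcf21 was at 0. Of the 7 mesothelial markers, Lrrn4 was lower with FK866 (-0.59) and higher with NR (0.59), while Msln, which was not called, had values of 0.41 and -0.41. With FK866 5 of the 7 values were negative and with NR 4 were positive, and the list, with Upk3b the most abundant, summed to 4162 to 4554 CPM untreated, 3688 to 4018 CPM with FK866 and 3814 to 4070.1 CPM with FK866 and NR. Of the 5 myofibroblast markers tested, Cdh11, their most abundant, was lower with FK866 (-0.68) and higher with NR (0.68), and of the 5 mural markers Kcnj8 (-1.91 and 1.38). The cardiomyocyte marker Tnnt2, at a mean of 0.498 CPM, was higher with FK866 (2.87) and lower with NR (-2.12). The part of these lists in the result was not tested. The direct comparison of FK866 with NR against untreated cultures called 0 of the 37 by edgeR (0.901% of all genes), with 15 at an unadjusted p under 0.05 and 1 called by DESeq2.

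Tgfb2 had 254, 257 and 268 CPM in untreated cultures, 114, 110.1 and 115 CPM with FK866 and 269, 270.1 and 273 CPM with FK866 and NR. Replicates differed by a few percent, and the log2 fold change was -1.20 ± 0.051 (SE), adjusted p = 3.55e-09 for FK866 and 1.26 ± 0.051 (SE), adjusted p = 2.3e-09 for NR. Tgfb3 had 202, 211 and 212 CPM, 110.0, 123 and 118 CPM and 194, 185 and 179.9 CPM (-0.83 ± 0.059 (SE), adjusted p = 2.9e-07 for FK866 and 0.67 ± 0.059 (SE), adjusted p = 2.05e-06 for NR). Both ligands were lower with FK866 in every culture and higher again with NR, whereas Tgfb1 did not pass (-0.15 ± 0.084 (SE), adjusted p = 0.216 for FK866). Fn1 had 4846, 4122 and 3632 CPM untreated, 1897, 1695 and 2576 CPM with FK866 and 6509, 5720.0 and 5716 CPM with FK866 and NR. It was lower in every FK866 culture and higher in every culture with NR (-1.03 ± 0.14 (SE), adjusted p = 8.47e-05 for FK866, 1.54 ± 0.14 (SE), adjusted p = 2.69e-06 for NR, and 0.51 ± 0.14 (SE), adjusted p = 0.0199 between FK866 with NR and untreated, which was not called).

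Pdgfra had 31.95, 29.01 and 25.9 CPM untreated, 15.5, 12.1 and 17.1 CPM with FK866 and 32.9, 30.6 and 31.5 CPM with NR added (-0.96 ± 0.12 (SE), adjusted p = 3.2e-05 and 1.09 ± 0.12 (SE), adjusted p = 1.26e-05). Adam12, a metalloprotease of activated mesenchymal cells, was low throughout, at 2.72, 4.05 and 3.66 CPM, 1.47, 1.24 and 2.21 CPM and 5.29, 5.85 and 4.699 CPM (-1.08 ± 0.26 (SE), adjusted p = 0.00802, lost in 4 of 6 fits without a culture, with an average count over 5 and in a fit of the 2 groups alone, and 1.67 ± 0.26 (SE), adjusted p = 0.000294). Fbln5, a fibulin of elastic fibres, went the other way. It had 3.195, 4.599 and 5.43 CPM untreated, 13.4, 12.5 and 11.3 CPM with FK866 and 3.43, 3.85 and 4.98 CPM with NR, and the FK866 cultures did not overlap the others (1.49 ± 0.17 (SE), adjusted p = 1.76e-05 and -1.59 ± 0.17 (SE), adjusted p = 1.33e-05). Spon2 fell with FK866, from 174, 175 and 173 to 89.4, 95.2 and 79.00 CPM (-0.99 ± 0.071 (SE), adjusted p = 3.11e-07), and Tnxb rose (0.62 ± 0.14 (SE), adjusted p = 0.00436; lost in 4 of 6 fits and in a fit of the 2 groups alone). NR raised Hspg2 (0.90 ± 0.18 (SE), adjusted p = 0.00241; lost without replicate 1 of either group) and Vcan (0.93 ± 0.21 (SE), adjusted p = 0.00473; lost in 4 of 6 fits and in a fit of the 2 groups alone), neither of which was called for FK866.

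**Figure D5:**
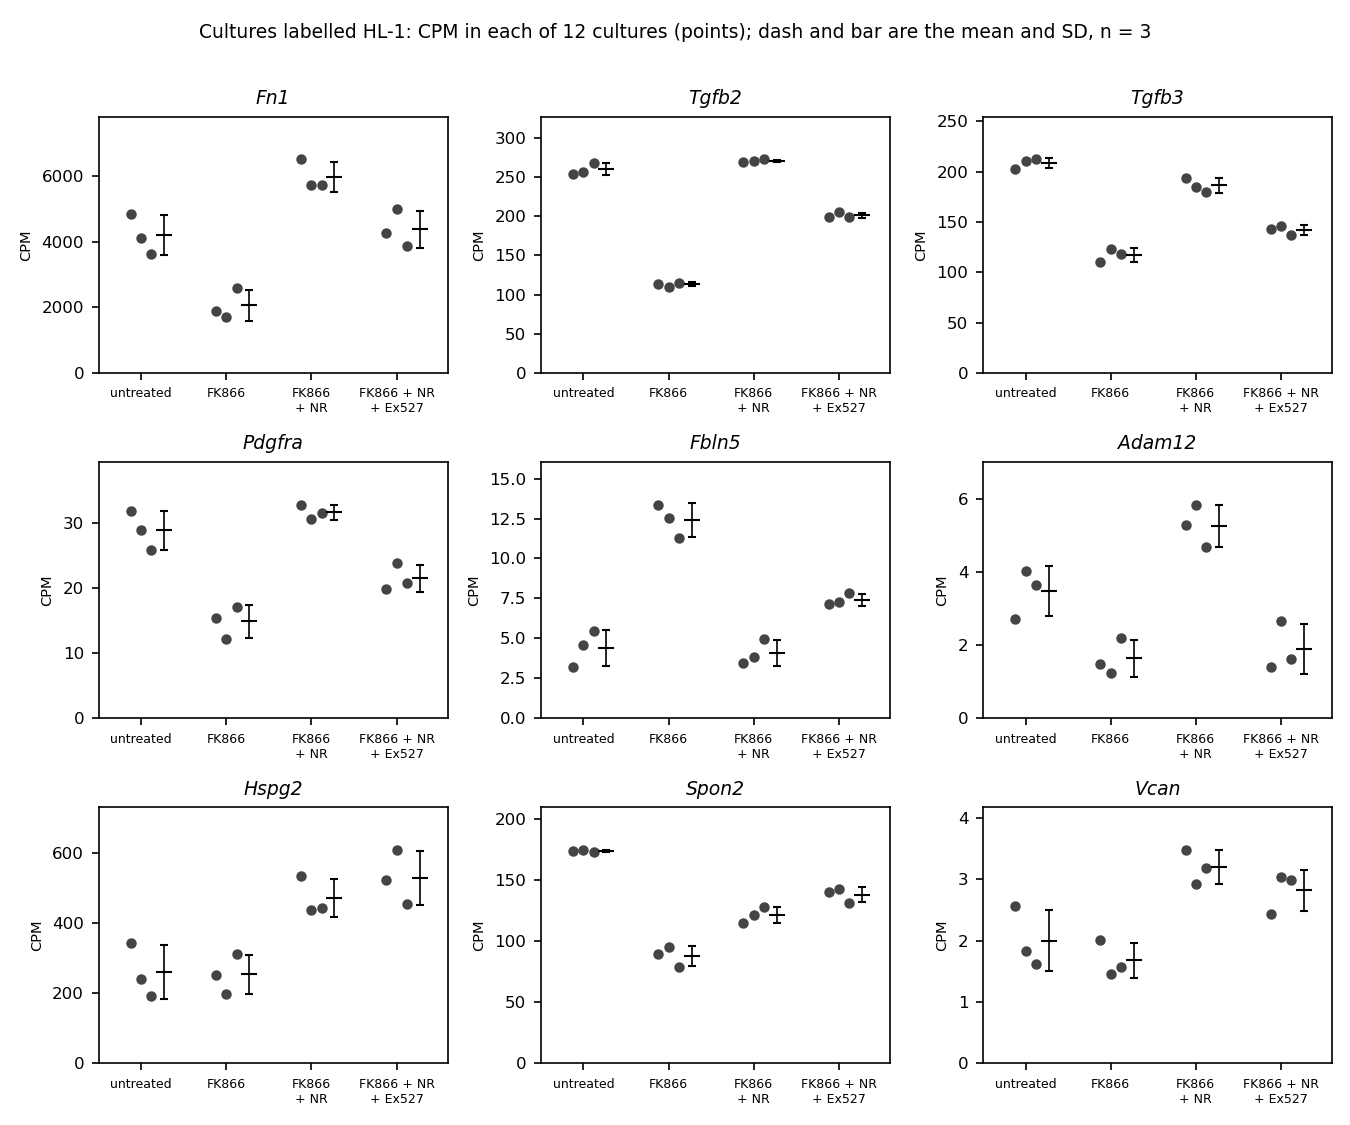
CPM of 9 genes in each of the 12 cultures labelled HL-1 (points), with the mean and SD of each treatment (n = 3); every y axis starts at 0. Tgfb2 lies at 254 to 268 CPM untreated, 110.1 to 115 with FK866 and 269 to 273 with FK866 and NR, and at 198 to 205 with Ex527 added, while Fbln5 shows the opposite order.

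Ex527, added to FK866 and NR, changed 2 of the 37 genes (5.41%, against 0.596% of all), 1 higher (0.21% of all) and 1 lower (0.386% of all). Adam12 had 1.402, 2.66 and 1.62 CPM with Ex527 (-1.46 ± 0.25 (SE), adjusted p = 0.00312) and Fbln5 7.12, 7.27 and 7.84 CPM (0.85 ± 0.17 (SE), adjusted p = 0.00907). Fbln5 lay between the cultures with FK866 alone and those with FK866 and NR, Adam12 overlapped those with FK866 alone, and Adam12 lost significance in 4 and Fbln5 in 5 of the 6 fits without a culture, Fbln5 also with an average count over 5 (adjusted p = 0.012). For Tgfb2, at 199, 205 and 198 CPM, the difference from FK866 and NR was -0.43 ± 0.050 (SE), adjusted p = 0.000203, under the 1.5-fold minimum, and so was that of Tgfb3 (-0.39 ± 0.059 (SE), adjusted p = 0.00121). Of the 8 fibroblast markers tested, Col1a2 was lower with Ex527 (-0.74), and the list summed to 3684 to 3830.0 CPM with and 4179.5 to 4228 CPM without it. Acta2, on the mural and the myofibroblast list, was lower too (-0.62), and the part of these lists in the result was not tested.

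Against FK866 alone, the cultures with FK866, NR and Ex527 differed in 5 of 37 genes (13.5%, against 1.27% of all), 4 higher (0.413% of all) and 1 lower (0.86% of all), with a median of 0.22 against 0.005. The higher genes were Hspg2 (1.06 ± 0.19 (SE), adjusted p = 0.0021), Fn1 (1.09 ± 0.14 (SE), adjusted p = 0.000182), Tgfb2 (0.83 ± 0.050 (SE), adjusted p = 2.74e-07) and Spon2 (0.65 ± 0.070 (SE), adjusted p = 5.7e-05), and the lower one was Fbln5 (-0.74 ± 0.16 (SE), adjusted p = 0.00749; kept in 1 of 6 fits, and lost with an average count over 5, adjusted p = 0.0105). Spon2 had 140.4, 143 and 131 CPM, still below every untreated culture. The fibroblast markers Col1a1 (0.60) and Col1a2 (0.63) were higher in the same contrast, with a list sum of 2866 to 3030.4 CPM with FK866 alone, and Tnnt2 was lower (-1.90); their part in the result was not tested. Hspg2 lost its call without FK866 replicate 1 or Ex527 replicate 2, and Spon2 without FK866 replicate 3, where its change was under 1.5-fold. Of the pathway genes outside the 51, FK866 lowered 2 of 36 in signalling (Acvr1 at -0.63 and Smad6 at -0.60; 5.56%, near the 4.59% of all genes), and among 48 matrix genes (12.5% called) it lowered 4, led by Matn2 (-1.01), Loxl3 (-0.80) and Ecm1 (-0.70), and raised Ccn1 (0.98) and Cilp2 (0.95). NR lowered Id3 (-0.68), Ccn1 (-0.998) and Igfbp7 (-0.74) and raised 4 matrix genes, led by Has2 (1.12), Matn2 (0.84) and Loxl3 (0.81), which is 2.78% of the signalling list, below the 4.81% of all genes, and 12.5% of the matrix list.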

How the data were processed

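Per the submitters' methods, the authors trimmed heart reads with Trimmomatic 0.39, aligned them with STAR 2.7.10a to mm10, discarded duplicates (Picard 3.0.0) and reads that were mitochondrial, ribosomal or mapped more than once, and counted the rest over exons with featureCounts 2.0.4, which gave the deposited counts. Removing duplicates caps the counts of abundant short genes. The heart table named as normalized holds the raw counts and the one named as raw holds a score that the authors made from them, counts divided by 1 factor per library (ratio 0.68 to 1.445); the counts were used. For the cultures the authors deposited counts, and HISAT2 is named in the notes; the counter is not given in the sources used here.

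Counts were tested with edgeR 4.0.16 (TMM, quasi-likelihood; R 4.3.3) in 1 fit of the 18 hearts (average count over 5) and 1 of the 12 cultures (filterByExpr), and p-values were adjusted by Benjamini-Hochberg over all genes tested. Calls needed an adjusted p under 0.05 in hearts, and under 0.01 with over 1.5-fold in cultures. SE is the fold change divided by the root of F. Alternatives were DESeq2 1.42.0, its size factors, other filters and thresholds, a replicate block, only the groups compared, leaving out each library and, chosen after seeing the data, summing the near-identical pair. On simulated counts with 200 genes changed by 1 log2 unit, 179 were recovered for young hearts between times, 106 for the age by time interaction and 191 for FK866. False calls were 8, 7 and 3. The simulation gave every gene of a data set the same dispersion and changed only genes above a minimum mean count. Recovery of smaller changes or of genes with few counts was not tested.

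TPM used exon lengths, and promoters came from RefSeq. Members and lists were chosen with earlier results of these data known. All called members are named where 12 or fewer were called, and otherwise the 6 largest in each direction with a mean normalized count of at least 50; any other named there was chosen after its values were seen. Among the called genes of the other TGF-β pathway list, 1 is counted but is not reported here.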

Additional observations from a re-analysis of the deposited data

Results flagged for a closer look

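For 7 genes the difference between ZT10 and ZT22 was not the same in young and old H2O hearts by the interaction term of edgeR's quasi-likelihood test: Tnxb (-0.54), Postn (-0.52), Tgfbr3 (-0.40), Pdgfra (-0.39), Tgfb3 (0.45), Loxl2 (0.60) and Thbs1 (1.44), all as log2 differences, old H2O minus young. Tnxb, Postn and Tgfbr3 kept an adjusted p under 0.05 in all 12 fits without 1 heart, with a highest adjusted p of 0.0481, 0.038 and 0.0467. Thbs1 was at 0.74 (adjusted p = 0.122) without young ZT22 replicate 2.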

How the results depend on the processing

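No named gene changed direction: of 92 named gene results, 50 kept their call in all fits without 1 library and 67 under all other settings. Counts of members that moved by over 1.5 times were as follows. In hearts, the age by time interaction gave 13 with the replicate block; age at ZT10 gave 4 with no filter and 12 with only the groups compared; age at ZT22 gave 9 with only the groups compared. NR at ZT10 gave 1 with DESeq2 and 5 with only the groups compared, NR at ZT22 gave 0 with only the groups compared, and NR over both times gave 1 with the near-identical pair summed. In cultures, an adjusted p under 0.05 with no minimum fold gave 18 for FK866, 21 for NR on FK866, 10 for FK866 with NR against untreated, 9 for Ex527 and 17 for Ex527 against FK866. FK866 with NR against untreated gave 1 with DESeq2, 1 with its size factors, 2 with no filter and 1 with only the groups compared, and Ex527 gave 1 with an average count over 5 and 1 with the replicate block. The cause was not tested.

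Leaving out 1 library gave 12 to 15 members for young hearts between times, 7 to 10 for old H2O, 6 to 12 for old NR, 4 to 12 for age by time, 0 to 1 for NR by time, 2 to 3 for age at ZT10, 9 to 15 for age at ZT22, 0 to 1 for NR at ZT10, 0 to 3 for NR at ZT22 and 1 to 4 for NR over both times. In cultures it gave 6 to 8 for FK866, 6 to 9 for NR on FK866, 0 to 2 for FK866 with NR against untreated, 0 to 2 for Ex527 and 3 to 5 for Ex527 against FK866.

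In hearts, deviations of same-numbered samples correlated weakly, with a median of 0.023 over 45 pairs (5 over 0.1) against -0.016 for different numbers. In cultures the median was 0.013 over 18 pairs (3 over 0.1) against -0.002. Of 18 hearts 8, and of 12 cultures 4, correlated best with their own number. At ZT22, replicate 1 was the shallowest library of each mouse group. With the replicate block, members called were 15, 14, 11, 13, 0, 9, 16, 0, 2 and 4 in hearts, in the order of the comparisons just given, and 7, 8, 0, 1 and 4 in cultures. The block ended the calls of Adam12 for FK866 (adjusted p = 0.0103) and of Fbln5 for Ex527 (0.013) and for Ex527 against FK866 (0.0106), and of no other named gene. Over all genes, the block called 2419 against 2219 for young hearts between times and 1216 against 1064 for age by time, but 638 against 678 for FK866. Whether same-numbered samples share a batch was not tested. Counts per heart were lowest for Adam12 (5 to 22), Timp1 (9 to 33) and Tnc (10 to 44); what change could be called at such counts was not tested.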
